A study of Mus musculus with 16 samples.

Results

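Hgsnat and 6 further enzymes of heparan sulfate breakdown (Sgsh, Naglu, Ids, Idua, Gusb and Hpse) were followed through 16 mouse tumour transcriptomes. These 7 genes were found by symbol among the 54532 genes of the expression table, and all 7 were among the 12319 genes with enough signal to test (at least 1 FPKM in at least 4 libraries). FPKM counts fragments per kilobase of a gene after correction for library depth, so levels can be compared between genes as well as between tumours. Hgsnat was selected because it stood out between the PBS groups, so its PBS difference is described and not tested. The 6 other genes were listed for their place in the same pathway.

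The tumours were grown under the right flank skin of 8-week-old C57BL/6J mice of both sexes from 100000 B16F10 cells, a mouse melanoma line. BdP tumours came from B16F10 cells low in Pros1, which the sample titles call deficient and another label a knockdown, and WT tumours came from wild-type B16F10 cells. Whether BdP cells are 1 clone is not given in the sources used here. Cisplatin, a platinum drug that crosslinks DNA, was injected into the peritoneum at 5 mg/kg once a day for 3 days, in 2 rounds, from day 8 after implantation, or PBS was given in its place. This gave BdP cisplatin, WT cisplatin, BdP PBS and WT PBS groups of 4 tumours each, collected at the end stage, broken up and sequenced as bulk RNA. In bulk RNA, fewer cells of a type and less RNA per cell cannot be told apart.

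Heparan sulfate is a sulfated sugar chain carried by proteoglycans at the cell surface and in the extracellular matrix. Heparanase (Hpse) cuts long chains into fragments, and lysosomal enzymes then remove sugars and sulfates in turn from the chain end. Ids and Idua act on iduronic acid (a sulfatase and a glycosidase), Sgsh, Hgsnat and Naglu act on glucosamine, and Gusb removes glucuronic acid. Hgsnat differs from the rest in being a transferase of the lysosomal membrane. It moves an acetyl group from cytosolic acetyl-CoA onto the glucosamine that Sgsh has freed of its sulfate, which makes the sugar a substrate for Naglu. Inherited loss of Sgsh, Naglu or Hgsnat causes Sanfilippo syndrome, loss of Ids Hunter syndrome, loss of Idua Hurler syndrome and loss of Gusb Sly syndrome.

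Many lysosomal genes carry a short E-box in the promoter that the MiT/TFE transcription factors (Mitf, Tfeb, Tfe3) read, and Mitf is abundant in melanoma cells. RefSeq promoters (build GRCm38.p6, 250 bases before to 50 after the start of the gene) were given for 6 of the 7 genes, Hgsnat not among them. TCACGTG or its reverse complement CACGTGA, which together cover both strands, stood in 2 of the 6, against 1237 of all 32851 promoters of the same length (3.77%). These are the promoters of Naglu and Sgsh, the enzymes that act just after and just before Hgsnat, and they are printed 5′ to 3′ on the strand of the gene with the match in capitals. The Naglu stretch is chr11:101069993-101070053 on the plus strand, with the match at 101070020 to 101070026. That is 74 bases before the RefSeq start that the window is built on (101070094), but inside the gene as the expression table gives it, from 101070012. The Sgsh stretch is chr11:119355506-119355566 on the minus strand, with the match at 119355533 to 119355539. That is 29 bases before its RefSeq start (119355510), and it spans the start in the expression table (119355536).
Naglu: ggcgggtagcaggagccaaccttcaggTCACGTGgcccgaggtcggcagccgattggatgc
Sgsh: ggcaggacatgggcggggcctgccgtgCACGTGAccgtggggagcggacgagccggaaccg
These letters were not present in the windows of Gusb, Hpse, Ids and Idua. A match describes the sequence and is not a measured binding site.

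Depth ranged from 10051843 to 27055771 reads assigned to genes per library, as recovered from the deposited values. WT PBS replicate 1 stood apart, with 76.9% of its reads on mitochondrial genes and 2322202 reads elsewhere. Mitochondrial genes took 21.7% of reads in WT cisplatin replicate 4 and 12.2% in WT cisplatin replicate 3, against 2.03% to 5.06% in the other 13 libraries. Melanocyte and melanoma markers (8 of 8 tested) summed to between 4903 and 8928 FPKM in every tumour, and none of the 8 was called between BdP and WT. Pros1, the gene lowered in BdP cells, averaged 2.21 ± 0.345 FPKM in BdP cisplatin and 10.3 ± 1.74 FPKM in WT cisplatin tumours (SD, n = 4 each). It averaged 1.50 ± 0.179 FPKM in BdP PBS and 6.47 ± 2.25 FPKM in WT PBS tumours. The groups did not overlap under either treatment, and the log2 differences of -1.80 and -1.54 both passed the test (limma, adjusted p = 0.000103 and 0.00092).

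Hgsnat (ENSMUSG00000037260) lies on the minus strand of chromosome 8 at 25944453 to 25976753 (GRCm38), with 18 exons in its longest coding transcript. Among cisplatin-treated tumours it measured 154, 139, 185 and 143 FPKM in the 4 BdP tumours (replicates 1 to 4), against 48.8, 81.1, 44.2 and 47.6 FPKM in the 4 WT tumours. The lowest BdP tumour was therefore well above the highest WT tumour, and 3 of the 4 WT tumours lay close together. The group means were 155 ± 20.6 FPKM in BdP cisplatin and 55.4 ± 17.2 FPKM in WT cisplatin tumours (SD, n = 4 each), a ratio of 2.80. On the log2(FPKM + 1) scale used for all tests the BdP value was 1.50 ± 0.21 (SE) above WT, with a 95% interval from 1.06 to 1.95 (limma over all genes tested, Benjamini-Hochberg adjusted p = 0.00181). These cisplatin libraries are not the ones Hgsnat was selected on. The SE, however, comes from the spread over all 16 libraries, including the PBS ones used for the selection. Of all genes tested, 1.07% were called in this comparison and 0.349% were called higher, and the 2 groups did not overlap for 13% of genes. Of the 43 genes called higher in BdP cisplatin tumours, Hgsnat ranked 6 by size of the difference and 2 by level.

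The Hgsnat call held when any 1 of the 16 libraries was left out (log2 difference 1.41 to 1.70, highest adjusted p = 0.0113). When the 3 tumours with the most mitochondrial RNA were left out together, which leaves 2 WT cisplatin tumours, the log2 difference was 1.28 and no longer called (adjusted p = 0.0638). On TPM, which rescales each library to a fixed sum, it was 1.67 with an adjusted p of 0.699.

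The PBS tumours, on which Hgsnat was selected, measured 127, 122, 202 and 181 FPKM in BdP, against 49.9, 46.7, 71.3 and 60.4 FPKM in WT. Again the lowest BdP tumour was above the highest WT tumour. The means were 158 ± 39.7 FPKM in BdP PBS and 57.1 ± 11.2 FPKM in WT PBS tumours (SD, n = 4 each), a ratio of 2.77 and a log2 difference of 1.44. In this contrast 0.99% of all genes tested were called and the groups did not overlap for 7.68% of genes. Nothing is read from those shares for Hgsnat, since it was picked there.

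No difference in Hgsnat between cisplatin and PBS passed the test in either genotype. Hgsnat was 155 FPKM in BdP cisplatin and 158 FPKM in BdP PBS tumours, and the fold between them had a 95% interval from 0.732 to 1.36 (limma, adjusted p = 1.00). In WT tumours it was 55.4 FPKM under cisplatin and 57.1 FPKM under PBS, with an interval for the fold from 0.70 to 1.30 (adjusted p = 0.934). The cisplatin response of BdP tumours minus that of WT tumours was 0.06 ± 0.30 on the log2 scale (adjusted p = 0.982). An interval that includes 1 does not show that the levels are the same. Both cisplatin comparisons use the PBS libraries on which Hgsnat was selected.

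**Figure D1:**
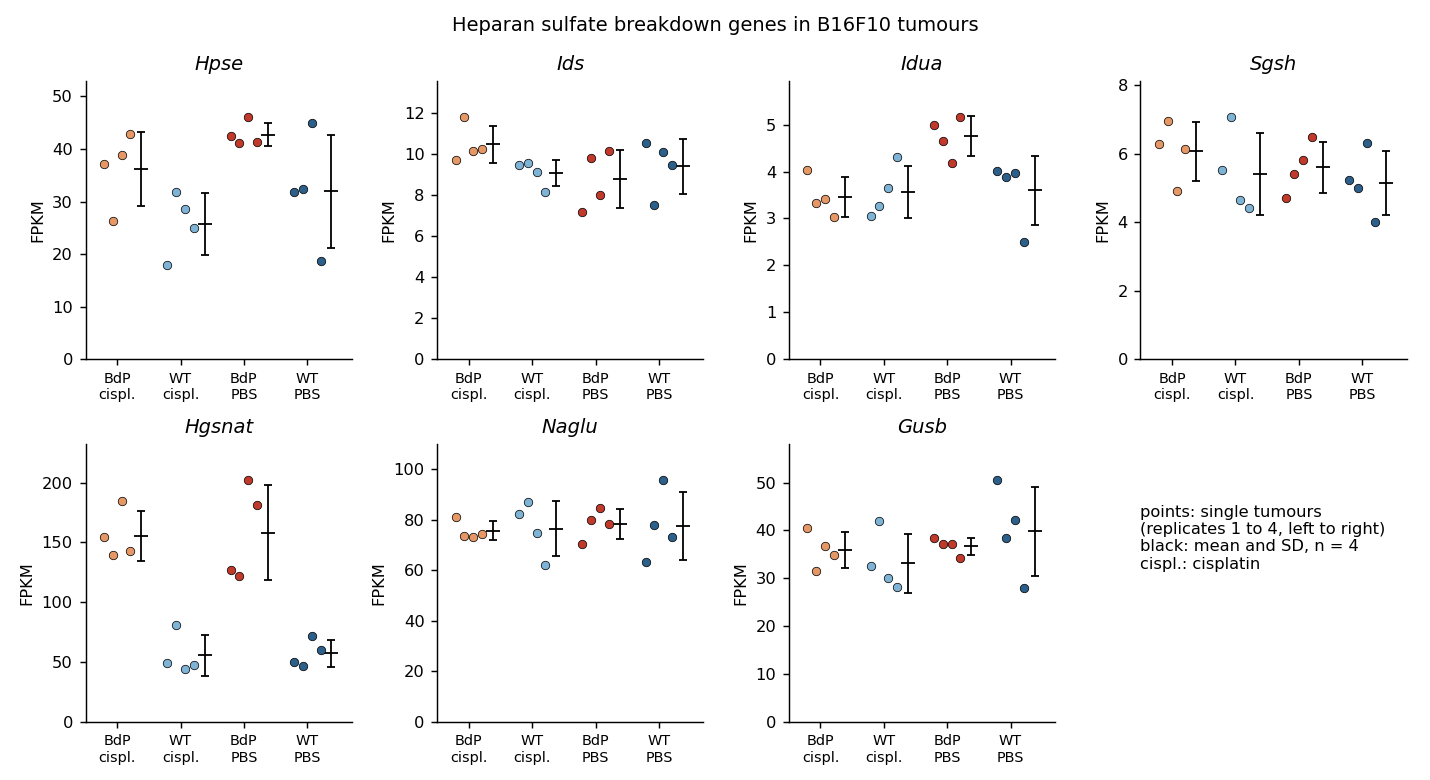
FPKM of Hpse, Ids, Idua, Sgsh, Hgsnat, Naglu and Gusb in each of the 16 tumours, with 1 panel per gene and a linear axis from 0. Points are single tumours, and black marks are the mean and SD of the 4 tumours of a group. The 8 BdP points of Hgsnat (122 to 202 FPKM) lie above all 8 WT points (44.2 to 81.1 FPKM), while the BdP and WT points of Naglu, Gusb and Sgsh overlap under both treatments.

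Within the pathway, the place of Hgsnat differed between the genotypes. It was the most abundant of the 7 transcripts in all 8 BdP tumours. In WT tumours Naglu was the most abundant in 8 of 8, and Hgsnat came next in 7 and behind Gusb as well in WT PBS replicate 1. Hgsnat held 47.9% ± 3.12 of the summed FPKM of the 7 genes in BdP cisplatin and 26.2% ± 3.57 in WT cisplatin tumours (SD, n = 4 each). Under PBS its share was 46.7% ± 5.64 in BdP and 25.5% ± 3.93 in WT tumours. The other 6 genes summed to 168 ± 10.6 FPKM in BdP cisplatin and 153 ± 20.2 FPKM in WT cisplatin tumours, and to 177 ± 7.20 FPKM in BdP PBS and 167 ± 27.7 FPKM in WT PBS tumours. Their sums overlapped between the genotypes under both treatments. Measured against its downstream partner, Hgsnat was 1.53 to 2.52 times the Naglu level in BdP tumours and 0.592 to 0.932 times that level in WT tumours. In cisplatin tumours alone these ratios were 1.89 to 2.52 in BdP and 0.592 to 0.932 in WT. Since Hgsnat was selected on the PBS tumours, their ranks, shares and ratios are only a description.

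None of the 6 other genes was called in any of the 7 comparisons by limma, nor by a count-based weighting of the recovered reads (voom). Of the 3 BdP over WT comparisons, each had 1 of the 6 with an unadjusted p below 0.05, beside 13.8% of all genes tested under cisplatin, 19.3% under PBS and 25.8% with both treatments averaged. Against WT, the fold in BdP tumours had 95% intervals that lay between 0.804 and 1.96 for all 6 under cisplatin, and between 0.747 and 1.94 under PBS. The median log2 difference of the 6 was 0.14 under cisplatin and 0.07 under PBS, beside 0.01 over all genes tested in both. With both treatments averaged, where 5.86% of all genes were called, the 6 differences lay between 0.01 and 0.48 on the log2 scale and all 6 were positive, as were 51.1% of all genes tested.

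Cisplatin against PBS likewise gave no call among the 7 genes. In WT tumours 0.00812% of all genes were called, which is 1 gene. In BdP tumours 0% were called, and the same was true with both genotypes averaged (0%) and for the difference between the genotypes in response (0%). Among the 6 other genes an unadjusted p below 0.05 was seen for 1 in BdP tumours and for 0 in WT tumours, for 0 with the genotypes averaged and for 0 in the difference of responses. Over all genes tested, such p values numbered 542 in BdP tumours, 953 in WT tumours, 781 with the genotypes averaged and 691 for the difference of responses. With voom there were 0, 3, 0 and 1 genes called in the same comparisons.

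**Figure D2:**
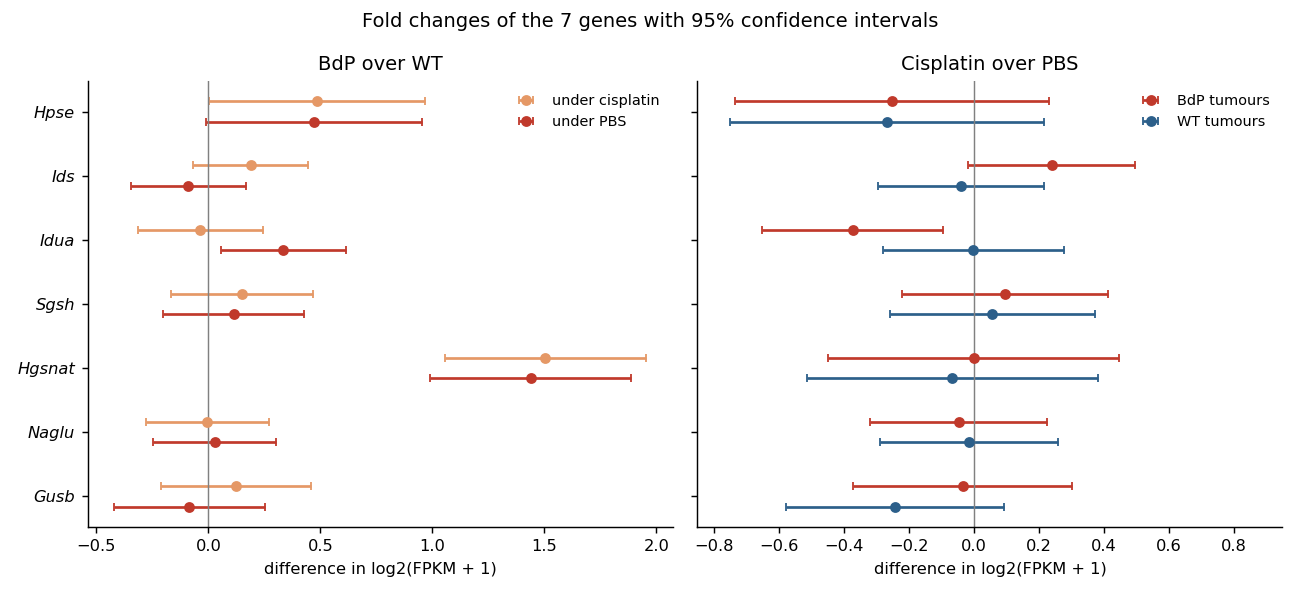
Differences in log2(FPKM + 1) for the 7 genes, with BdP over WT on the left and cisplatin over PBS on the right. Points are limma estimates and bars their 95% confidence intervals, from 4 tumours per group. For BdP over WT under cisplatin Hgsnat stands at 1.50, whereas Hpse, the next highest, stands at 0.49. Under PBS, where Hgsnat was selected, Hgsnat stands at 1.44 and Hpse at 0.47.

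Heparanase (Hpse, ENSMUSG00000035273, chromosome 5 at 100679484 to 100719716 on the minus strand) opens the pathway by cutting the chain. It measured 37.1, 26.3, 38.8 and 42.9 FPKM in BdP cisplatin tumours, against 17.9, 31.7, 28.5 and 24.9 FPKM in WT cisplatin tumours. Under PBS it measured 42.5, 41.2, 46.0 and 41.4 FPKM in BdP tumours, against 31.9, 32.4, 44.9 and 18.6 FPKM in WT tumours. The genotypes overlapped under both treatments, through BdP cisplatin replicate 2 and WT PBS replicate 3. The log2 difference was 0.49 ± 0.23 under cisplatin (limma, adjusted p = 0.360) and 0.47 ± 0.23 under PBS (adjusted p = 0.268). With both treatments averaged it was 0.48 ± 0.16, for 39.5 ± 5.96 FPKM in BdP and 28.9 ± 8.68 FPKM in WT tumours (SD, n = 8 each), and it missed the threshold (adjusted p = 0.0878). Without WT PBS replicate 3, the WT tumour with the most Hpse, it was 0.57 and passed (limma, adjusted p = 0.0273). That was the only 1 of 22 alternatives in which Hpse was called. In that setting 1619 of all genes were called, against 722 in the main fit.

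Leukocyte markers were lowest where Hpse was lowest among WT tumours, but not among BdP PBS tumours. The summed FPKM of 4 genes found across leukocytes (Ptprc, Coro1a, Laptm5 and Cd53) ranged from 98.3 to 258 in BdP cisplatin and from 15.2 to 132 in WT cisplatin tumours. Under PBS it ranged from 59.8 to 492 in BdP and from 7.59 to 239 in WT tumours. The WT tumours lowest in these markers, WT PBS replicate 4 (7.59) and WT cisplatin replicate 1 (15.2), were also the lowest of all in Hpse, at 18.6 and 17.9 FPKM. WT PBS replicate 3, the highest WT tumour in these markers (239), had the most Hpse of any WT tumour, 44.9 FPKM. Among BdP PBS tumours the order was the other way at the extremes, since replicate 3, the lowest in these markers (59.8), had the most Hpse of all 16 tumours, 46.0 FPKM, and replicate 2, the highest (492), had the least of its group, 41.2 FPKM. BdP cisplatin replicate 2 (238) had 26.3 FPKM of Hpse at nearly the marker sum of WT PBS replicate 3. Macrophage markers (8 of 8 tested) summed to between 61.4 and 597 FPKM in BdP cisplatin and between 53.2 and 235 FPKM in WT cisplatin tumours, and to between 224 and 809 FPKM in BdP PBS and between 47.0 and 813 FPKM in WT PBS tumours. The 2 tumours of nearly equal leukocyte sum were far apart in macrophage markers. These summed to 61.4 FPKM in BdP cisplatin replicate 2 and 813 FPKM in WT PBS replicate 3. None of these 12 markers was called between the genotypes, and none was at 0 in a whole group. With both treatments averaged, all 4 leukocyte markers were higher in BdP, with a median log2 difference of 1.61. Each had an unadjusted p below 0.05 by limma, beside 25.8% of all genes tested. All 8 macrophage markers were also higher in BdP (median 0.68), 0 of them with such a p. The part of these markers in the Hpse values was not tested.

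Both genotypes had tumours at leukocyte marker sums from 59.8 to 239. Every BdP tumour exceeded every WT tumour in Hgsnat, so any subset holding both genotypes must separate, and nothing is concluded from this one. In that range 5 BdP tumours had 139 to 202 FPKM of Hgsnat and 4 WT tumours had 44.2 to 71.3 FPKM. The other 4 WT tumours lay below the range and the other 3 BdP tumours above it, so the genotypes cannot be compared there. The range includes PBS tumours, on which Hgsnat was selected. Of cisplatin tumours it holds BdP replicates 1, 2 and 4 (154, 139 and 143 FPKM of Hgsnat) and WT replicates 3 and 4 (44.2 and 47.6 FPKM). The BdP tumour lowest in these leukocyte markers, BdP PBS replicate 3 (59.8), had the most Hgsnat of all 16, 202 FPKM. The WT tumour highest in them, WT PBS replicate 3 (239), had 71.3 FPKM of Hgsnat, below every BdP tumour. At a nearly equal marker sum, BdP cisplatin replicate 2 (238) had 139 FPKM. The leukocyte markers were themselves higher in BdP tumours with both treatments averaged, and the part of leukocytes in the Hgsnat values was not tested. Mast cell markers, for a cell type that can secrete heparin, were near 0 (summed FPKM at most 2.57 in any tumour, 0 of 5 tested).

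**Figure D3:**
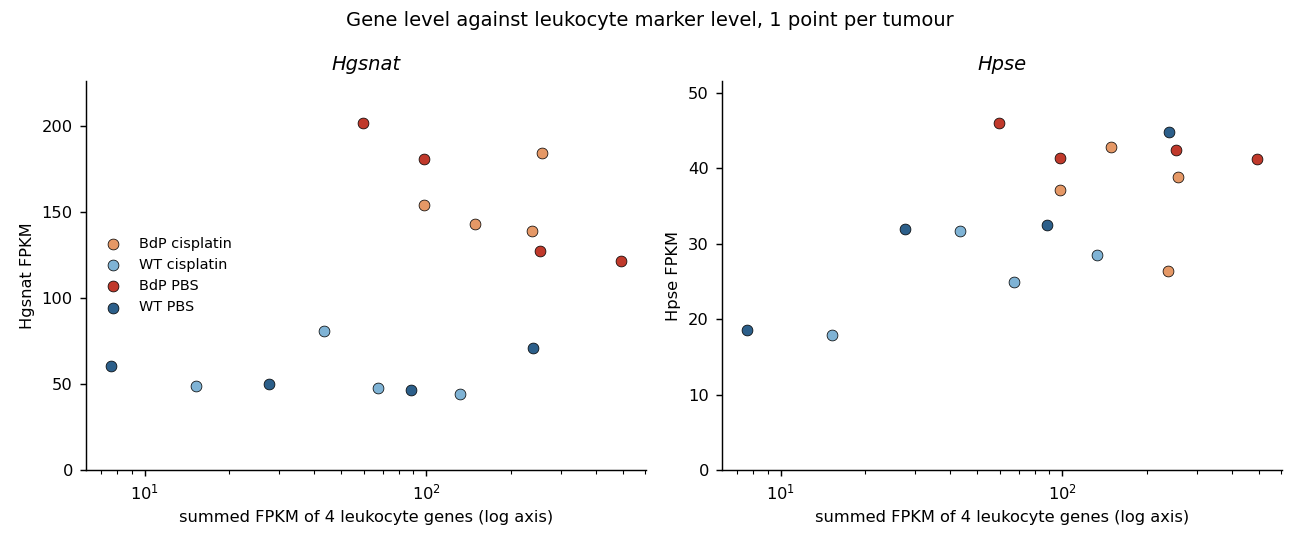
FPKM of Hgsnat (left) and Hpse (right) against the summed FPKM of the 4 leukocyte genes on a log axis, with 1 point per tumour coloured by group. The BdP points of Hgsnat (122 to 202 FPKM) lie above the WT points (44.2 to 81.1 FPKM), and both genotypes have points only between marker sums of 59.8 and 239. The lowest Hpse points, 17.9 and 18.6 FPKM, are the WT tumours with the lowest marker sums.

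Of the enzymes that act on iduronic acid, Ids (iduronate 2-sulfatase, ENSMUSG00000035847, chromosome X at 70343069 to 70365084, minus strand) measured 9.69, 11.8, 10.2 and 10.3 FPKM in BdP cisplatin and 9.44, 9.55, 9.11 and 8.13 FPKM in WT cisplatin tumours. These groups did not overlap, but by a margin of under 1 FPKM, and the log2 difference of 0.19 ± 0.12 did not pass (limma, adjusted p = 0.505). Ids was 1 of the 6 other genes without overlap there, beside the 13% of all genes given above. Under PBS it measured 7.17, 9.82, 7.97 and 10.1 FPKM in BdP tumours, against 10.5, 7.50, 10.1 and 9.45 FPKM in WT tumours, with overlap. Cisplatin over PBS in BdP tumours was 0.24 ± 0.12 on the log2 scale (unadjusted p = 0.0645 by limma).

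Idua (alpha-L-iduronidase, ENSMUSG00000033540, chromosome 5 at 108660331 to 108684557, plus strand), which removes the sugar after Ids has taken off its sulfate, had the lowest level of the 7. It measured 4.03, 3.32, 3.41 and 3.02 FPKM in BdP cisplatin tumours, against 3.05, 3.27, 3.64 and 4.31 FPKM in WT cisplatin tumours. Under PBS it measured 5.00, 4.65, 4.19 and 5.16 FPKM in BdP tumours, against 4.02, 3.89, 3.97 and 2.50 FPKM in WT tumours. BdP PBS tumours thus lay above the other 3 groups with the exception of WT cisplatin replicate 4. BdP PBS and WT PBS tumours did not overlap in Idua, the only 1 of the 6 other genes for which this held under PBS, beside the 7.68% of all genes given above. The BdP over WT difference was 0.34 ± 0.13 under PBS (unadjusted p = 0.0216, limma adjusted p = 0.190) and -0.04 ± 0.13 under cisplatin (adjusted p = 0.936). Cisplatin over PBS was -0.37 ± 0.13 in BdP tumours (unadjusted p = 0.0123, adjusted p = 1.00) and 0.00 ± 0.13 in WT tumours (adjusted p = 0.999). BdP cisplatin and BdP PBS tumours did not overlap in Idua, which held for 4.42% of all genes tested in that comparison, and for 3.24% of genes, none of them among the 7, between WT cisplatin and WT PBS tumours. The difference between those responses was -0.37 ± 0.18 and did not pass (adjusted p = 0.835). Idua rested on 33 reads in WT PBS replicate 1, the fewest of any of the 7 genes in any library.

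The remaining glucosamine enzymes sit on either side of Hgsnat in the order of reactions. Sgsh (the sulfatase that prepares its substrate, ENSMUSG00000005043, chromosome 11 at 119343425 to 119355536, minus strand) ranged from 4.91 to 6.95 FPKM in BdP cisplatin and from 4.42 to 7.06 FPKM in WT cisplatin tumours. Under PBS it ranged from 4.71 to 6.49 FPKM in BdP and from 4.01 to 6.30 FPKM in WT tumours. The log2 difference was 0.15 ± 0.15 under cisplatin and 0.11 ± 0.15 under PBS (limma, adjusted p = 0.696 and 0.680). Naglu (the glycosidase that removes the acetylated sugar, ENSMUSG00000001751, chromosome 11 at 101070012 to 101077672, plus strand) measured 81.2, 73.7, 73.3 and 74.6 FPKM in BdP cisplatin and 82.3, 87.0, 74.6 and 62.0 FPKM in WT cisplatin tumours. Under PBS it measured 70.4, 79.8, 84.6 and 78.5 FPKM in BdP tumours, against 63.4, 78.0, 95.8 and 73.0 FPKM in WT tumours. Naglu was the most even of the 7 between genotypes, with a fold of BdP over WT between 0.825 and 1.20 under cisplatin and between 0.843 and 1.23 under PBS (95% intervals). Naglu and Sgsh, whose promoters hold the E-box letters above, had genotype groups that overlapped under both treatments. The Hgsnat promoter was not given, and a link between these letters and the levels was not tested.

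Gusb (beta-glucuronidase, ENSMUSG00000025534, chromosome 5 at 129989011 to 130003049, minus strand) ranged from 31.6 to 40.5 FPKM in BdP cisplatin and from 28.1 to 42.0 FPKM in WT cisplatin tumours. Under PBS it ranged from 34.2 to 38.4 FPKM in BdP and from 27.9 to 50.5 FPKM in WT tumours. The log2 difference was 0.12 ± 0.16 under cisplatin and -0.08 ± 0.16 under PBS (limma, adjusted p = 0.775 and 0.778). In WT PBS tumours its coefficient of variation was 23.6%, against 4.84% in BdP PBS tumours.

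By median level over the 8 BdP tumours the order was Hgsnat (149 FPKM), Naglu (76.5), Hpse (41.3), Gusb (36.9), Ids (9.98), Sgsh (5.97) and Idua (4.11). Of neighbours in that order, the ranges of Hpse and Gusb overlapped, as did those of Sgsh and Idua. Over the 8 WT tumours the order was Naglu (76.3 FPKM), Hgsnat (49.4), Gusb (35.5), Hpse (30.1), Ids (9.45), Sgsh (5.11) and Idua (3.77). There the ranges of neighbours overlapped for Naglu with Hgsnat, Hgsnat with Gusb, Gusb with Hpse and Sgsh with Idua. Sgsh shares 1951 bases with Card14 on the other strand, and Idua shares 9342 bases with Dgkq and 5692 bases with Slc26a1 on the other strand. Whether reads were counted by strand is not given in the sources used here, so reads of these genes cannot be told apart from those of their partners. Dgkq and Slc26a1 were at most 1.14 and 0.736 FPKM, and Card14 was between 2.71 and 3.89 FPKM.

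Under cisplatin no tested gene from 8 lists around heparan sulfate and the lysosome matched the difference of Hgsnat. Of other breakdown genes, 5 of 7 were tested, and 0 were called under cisplatin and 1 under PBS (1.07% and 0.99% of all genes tested). That gene was Sumf1, which activates sulfatases such as Ids and Sgsh. It averaged 10.7 ± 0.815 FPKM in BdP PBS and 15.3 ± 1.14 FPKM in WT PBS tumours, a log2 difference of -0.47 ± 0.08 (limma, adjusted p = 0.0132), which read 0.42 on TPM, where the median of all genes was 0.76. Under cisplatin Sumf1 averaged 12.9 ± 0.736 FPKM in BdP and 14.0 ± 0.445 FPKM in WT tumours (adjusted p = 0.573). The median log2 difference of these 5 genes was 0.01 under both treatments.

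Of 28 genes of heparan sulfate synthesis 19 were tested, with a median log2 difference of 0.12 under cisplatin and -0.02 under PBS. B4galt7, which adds a galactose to the linker on which the chain is built, was lower in BdP than in WT tumours under cisplatin. It averaged 7.25 ± 0.626 FPKM in BdP cisplatin and 10.6 ± 1.08 FPKM in WT cisplatin tumours (log2 difference -0.49 ± 0.11, limma, adjusted p = 0.0456). Under PBS it averaged 7.62 ± 0.603 FPKM in BdP and 8.42 ± 1.30 FPKM in WT tumours. B4galt7 was the only 1 of the 19 called under cisplatin, beside 1.07% of all genes tested, and the call held in 4 of 22 alternatives. With both treatments averaged, B4galt7 (-0.31) and the 2-O-sulfotransferase Hs2st1 (-0.39) were called lower in BdP (adjusted p = 0.0336 and 0.0345), 2 of 19 beside 5.86% of all genes, and on TPM both read above 0 (0.16 and 0.10) beside a median of 0.45 for all genes. Under PBS 0 of the 19 were called (0.99% of all genes tested), and 4 had an unadjusted p below 0.05 by limma (19.3% of all genes tested). Such a p was seen for 6 of the 19 under cisplatin (13.8% of all genes) and for 7 with both treatments averaged (25.8%). Among proteoglycan cores, which carry the chains, 10 of 15 were tested and 0 were called under either treatment (1.07% of all genes under cisplatin and 0.99% under PBS). There was 1 unadjusted p below 0.05 in each (13.8% of all genes under cisplatin and 19.3% under PBS). Their medians were 0.18 under cisplatin and 0.13 under PBS. The core Col18a1 averaged 1.25 ± 0.798 FPKM in BdP cisplatin and 3.11 ± 1.36 FPKM in WT cisplatin tumours (adjusted p = 0.256).

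Among 7 tested hydrolases of other glycosaminoglycans, 33 other lysosomal hydrolases, 27 genes of the lysosomal membrane and its acidification, 9 of lysosomal sorting and 3 MiT/TFE factors, 0 were called under cisplatin and 0 under PBS (1.07% and 0.99% of all genes tested). The medians of these 5 lists under cisplatin were 0.18, 0.10, -0.01, -0.02 and 0.00 on the log2 scale. The highest value under cisplatin was 1.25 ± 0.90 for Ctss, a cathepsin best known from antigen-presenting cells (adjusted p = 0.565). The lowest was -0.60 ± 0.17 for Mitf, which averaged 50.0 ± 7.92 FPKM in BdP and 76.2 ± 9.36 FPKM in WT tumours (adjusted p = 0.128). Under PBS Mitf stood the other way, at 73.0 ± 13.3 FPKM in BdP and 54.5 ± 11.9 FPKM in WT tumours (adjusted p = 0.209). Neither Mitf difference was called, and a part of Mitf in the Hgsnat levels was not tested. With both treatments averaged, 5 of the 79 genes of these lists were called (6.33%), a share near the 5.86% of all genes tested. Npc1 (0.55, adjusted p = 0.0078), which exports cholesterol from the lysosome, Lamp1 (0.27, adjusted p = 0.0341), a coat protein of its membrane, Gnptab (0.38, adjusted p = 0.0127), which starts the mannose 6-phosphate tag of lysosomal enzymes, and Tfeb (0.30, adjusted p = 0.0452), which drives lysosomal genes, were higher in BdP. The acid phosphatase Acp2 (-0.29, adjusted p = 0.0333) was lower in BdP, though it read 0.19 on TPM beside the median of 0.45. Npc1 averaged 15.1 ± 1.92 FPKM in BdP cisplatin and 9.42 ± 1.26 FPKM in WT cisplatin tumours, and 16.3 ± 2.04 FPKM in BdP PBS and 11.6 ± 2.57 FPKM in WT PBS tumours. The calls of Lamp1, Tfeb and Acp2 held in 7, 4 and 10 of 22 alternatives, those of Npc1 and Gnptab in 21 and 20.

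**Figure D4:**
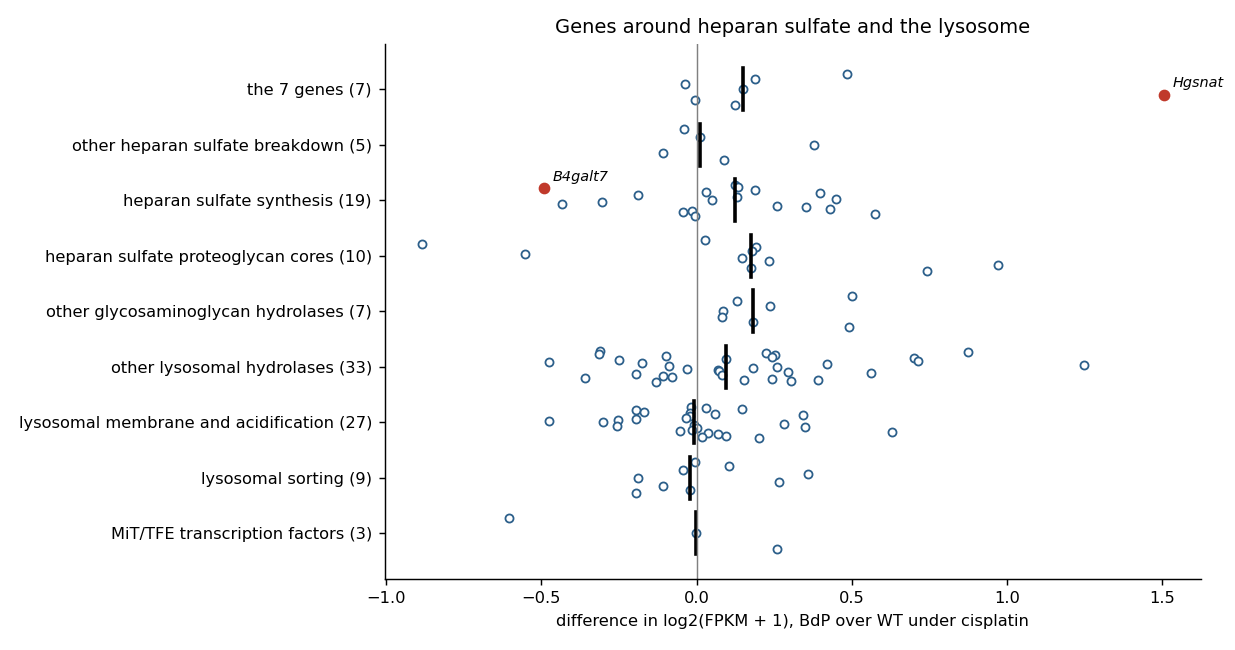
Differences in log2(FPKM + 1) of BdP over WT under cisplatin for the 7 genes and 8 lists around them, with the number of genes tested in brackets. Each point is a gene, filled red where the adjusted p was below 0.05, and the black line is the median of the row. Hgsnat at 1.50 is the highest point of the plot, and B4galt7 at -0.49 is the other red one.

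Most genes tested near Hgsnat on chromosome 8 had a positive difference between BdP and WT tumours. Of the 23 genes tested whose lower coordinate lay within 2 Mb of that of Hgsnat, 21 had a positive BdP over WT difference under cisplatin and 19 under PBS, beside 51.1% and 51.3% of all genes tested. The medians of the 23 were 0.28 under cisplatin and 0.21 under PBS, and the highest values 0.83 and 1.07. Under cisplatin each neighbour differed by less than Hgsnat (1.50), and under PBS, where Hgsnat was selected, no such comparison is drawn. Under cisplatin 2 of the 23 neighbours were called, both higher in BdP, beside 0.349% of all genes tested called higher. Ash2l, a subunit of histone H3 lysine methyltransferase complexes, averaged 17.6 ± 1.34 FPKM in BdP cisplatin and 12.8 ± 0.792 FPKM in WT cisplatin tumours (log2 difference 0.43 ± 0.08, adjusted p = 0.0244). Erlin2, an endoplasmic reticulum membrane protein, averaged 20.1 ± 0.797 FPKM in BdP cisplatin and 14.4 ± 2.04 FPKM in WT cisplatin tumours (0.46 ± 0.10, adjusted p = 0.0381). Over 22 alternatives the Ash2l difference ranged from 0.36 to 0.59 and was called in 13, and that of Erlin2 ranged from 0.31 to 0.63 and was called in 9.

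The next 2 by p under cisplatin were Adgra2, an adhesion receptor, and Pomk, a kinase that acts on a sugar of dystroglycan. Adgra2 averaged 13.9 ± 2.04 FPKM in BdP cisplatin and 7.63 ± 2.65 FPKM in WT cisplatin tumours (0.83 ± 0.21, adjusted p = 0.0763). Pomk, the closest neighbour by lower coordinate at 36.2 kb, averaged 15.4 ± 1.03 FPKM in BdP cisplatin and 9.30 ± 2.96 FPKM in WT cisplatin tumours (0.71 ± 0.20, adjusted p = 0.112). Under PBS 1 of the 23 neighbours was called, Adgra2 at 1.07 (adjusted p = 0.0267), beside 0.99% of all genes called in either direction. With both treatments averaged 6 of the 23 were called, all higher in BdP, beside the 5.86% of all genes called in either direction. The neighbours share the same tumours, so they are not independent of each other, and whether they and Hgsnat moved for a common reason was not tested.

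**Figure D5:**
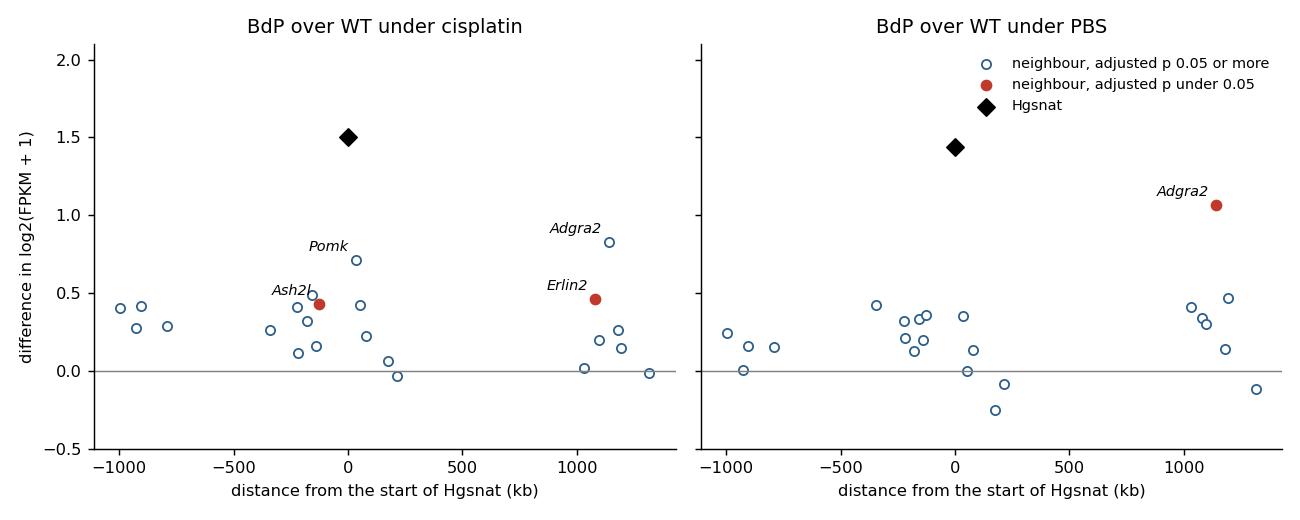
Differences in log2(FPKM + 1) of BdP over WT for the 23 neighbours (circles) and Hgsnat (diamond) by distance between lower coordinates, in kb, under cisplatin (left) and PBS (right). Red circles had an adjusted p below 0.05. Most circles lie above 0, and Hgsnat lies at 1.50 under cisplatin and at 1.44 under PBS, where it was selected.

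The genes whose log2(FPKM + 1) most resembled that of Hgsnat over the 16 tumours included Abhd14b (Pearson r = 0.93), Erlin2 (0.92), Adgra2 (0.92), Pdk2 (0.90), Arhgap30 (0.90), Clstn1 (0.90) and Slco3a1 (0.89). Erlin2 and Adgra2 are 2 of the neighbours above, and the others named lie on other chromosomes. Pdk2, a kinase that restrains pyruvate dehydrogenase, averaged 3.21 FPKM in BdP cisplatin and 1.17 FPKM in WT cisplatin tumours. The lowest values were those of Rnf113a2 (-0.94), Anp32e (-0.93) and Hoxd13 (-0.93). Hoxd13, a homeobox gene, averaged 1.06 FPKM in BdP cisplatin and 5.94 FPKM in WT cisplatin tumours. All these values describe 16 points that fall into a BdP and a WT cluster, so any gene with a steady genotype difference scores high.

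None of the 6 other enzymes was among those genes. Their own correlations with Hgsnat were 0.64 for Hpse, 0.46 for Sgsh, 0.27 for Idua, 0.23 for Naglu, 0.20 for Ids and 0.13 for Gusb. The highest correlations of Hpse were with App (0.90), Itgb5 (0.89) and Sirpa (0.89). Those of Gusb were with G3bp1 (0.90), Abhd17c (0.89) and Agpat3 (0.88), and those of Idua with Nedd4l (0.88), Ezh1 (0.85) and Ppip5k1 (0.82). Naglu was most like Slc39a3 (0.87), Zmynd19 (0.84) and Map3k11 (0.83), and the best matches of Sgsh included Pgpep1 and Slc44a3 (each 0.84). Ids, with Zfp217 (0.79), Cfap97 (0.78) and Dtwd2 (0.75), had the weakest best match of the 7. Each correlation is over the same 16 libraries, which also share depth and RNA quality, and is given as a description.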

How the data were processed

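The authors deposited FPKM per gene and library, and the submitters' processing notes list the tools featureCounts 1.5.0-p3, HISAT2 2.0.5 and CASAVA and the build GRCm38 (mm10). FPKM times gene length was a whole multiple of a fixed step for 100% of genes within 0.1 read, and the divisor equalled a median-of-ratios size factor (ratio 1.00), so libraries were already scaled to each other and were not normalised again. A total of 27 symbols turned into dates were restored from GENCODE M21.

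In limma 3.58.1 (R 4.3.3), 4 group means per gene were estimated from log2(FPKM + 1) of the 16 libraries, using trended empirical Bayes variances, for the 12319 genes that reached 1 FPKM in 4 or more libraries. Calls needed a p under 0.05 after Benjamini-Hochberg adjustment across those genes. This scale understates changes of low genes. The fit was tested on simulated data first. Errors are SD for FPKM and SE for log2 differences. The 7 comparisons were BdP against WT under each treatment and averaged, cisplatin against PBS in each genotype and averaged, and the difference of responses.

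The 7 genes, the lists and the comparisons were chosen with earlier results of these data known. Beyond the 7 genes and Pros1, the text names up to 4 genes of a list by smallest p in a comparison, called list genes, the 4 neighbours of Hgsnat with the smallest p under cisplatin, and the genes most and least correlated with a member (8 and 3 for Hgsnat, 3 for each other). A few genes that this rule names are not reported here. Ctss was named after its values were seen. Nothing in the labels says that replicates came from separate experiments, so p values measure the spread between these tumours. Alternatives were a pseudocount of 0.1, no filter, TPM computed from the FPKM, voom on the recovered reads, leaving out the 3 libraries richest in mitochondrial reads, a replicate block, and leaving out each library.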

Additional observations from a re-analysis of the deposited data

Results flagged for a closer look

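Over the 7 genes and 4 groups, 28 sets of 4 tumours were searched for a tumour far from the other 3, by the gap to its nearest neighbour as a share of the range. Chance alone gives about 1 in 20. Hgsnat was 81.1 FPKM in WT cisplatin replicate 2, far above the other 3 WT cisplatin tumours (44.2 to 48.8 FPKM) and still below every BdP tumour. Naglu was 81.21 FPKM in BdP cisplatin replicate 1, above the other 3 of that group (73.3 to 74.6 FPKM). Idua was 2.503 FPKM in WT PBS replicate 4, below the other 3 of that group (3.89 to 4.02 FPKM), and this is the tumour with the lowest leukocyte and macrophage marker sums. No explanation of these values was tested.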

How the results depend on the processing

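The Hgsnat difference under cisplatin kept its direction in all 22 alternatives, at 1.41 to 1.70 when 1 library was left out. It missed the threshold on TPM (1.67, adjusted p = 0.699) and without the 3 libraries richest in mitochondrial reads (1.28, adjusted p = 0.0638), which leaves fewer WT tumours. With a replicate block it was 1.50 (adjusted p = 0.0078). Same-numbered tumours did not deviate together (correlations -0.613 to 0.415, 9 of 24 over 0.1), so the numbers are not taken as pairs. The PBS difference of Hgsnat ranged from 1.31 to 2.43 over the alternatives, with 2.43 on TPM. The shift of the median of all genes on TPM was 0.76 under PBS, 0.14 under cisplatin and 0.45 averaged. Of 1056 values of the other 48 fold changes of the 7 genes, 941 kept direction and side, 112 uncalled ones changed sign (30 fold changes, none above 0.279 in size), 1 became called (Hpse without WT PBS replicate 3), 2 untested Hgsnat values moved by over 1 SD (both TPM), and 0 called ones reversed.

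The number of genes called depended more on the setting, and the cause was not tested. For BdP over WT under PBS (122 genes) it was 56 without a filter, 6 on TPM, 50 without the 3 mitochondria-rich libraries, 81 with the replicate block and 25 (without BdP PBS replicate 4) to 356 (without WT PBS replicate 3) leaving 1 library out. Under cisplatin (132) it was 21 on TPM, 231 with voom, 55 without the 3 libraries, 80 with the block and 50 (without WT cisplatin replicate 1) to 310 (without WT PBS replicate 1). Averaged over treatments (722) it was 449 without a filter, 435 on TPM and 370 to 1619 leaving 1 library out. For cisplatin over PBS in WT tumours (1) it was 0 with a pseudocount of 0.1, on TPM, without the 3 libraries and with the block, 3 with voom, and 0 to 3 leaving 1 out. In BdP tumours (0) it was 1 with a pseudocount of 0.1, without a filter and without the 3 libraries, 3 on TPM, and 0 to 1 leaving 1 out. Averaged over genotypes (0) it was 1 on TPM and 0 to 2 leaving 1 out, and for the difference of responses (0) it was 1 on TPM and with voom and 0 to 1 leaving 1 out.

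Of the called genes outside the 7, Acp2, B4galt7 and Hs2st1 averaged over treatments read 0.19, 0.16 and 0.10 on TPM, and Sumf1 read 0.42 under PBS and 0.23 averaged. All lay below the median of all genes there, by 0.26, 0.28, 0.35, 0.34 and 0.22. The call held in 13 of 22 alternatives for Ash2l, 9 for Erlin2 and 4 for B4galt7 under cisplatin, in 13 for Adgra2 and 20 for Sumf1 under PBS, and averaged over treatments in 21 for Npc1, 20 for Gnptab, 10 for Acp2, 10 for Hs2st1, 9 for B4galt7, 7 for Lamp1 and 4 for Tfeb. Depth limited Idua and Sgsh most, with 33 and 45 reads in WT PBS replicate 1.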
